A study of Drosophila melanogaster with 18 samples.

Results

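Isolated initiation sites are positions at which genomic fragments of Drosophila melanogaster started transcription in a reporter plasmid and around which no other such position was listed within 5000 bp on either strand. On the 6 chromosome arms named without Het in the genome build dm3, 3484 of 12469 sites met this rule, 27.9% of the main-arm sites. They made up 26.4% of the whole genome-wide list of 13218 sites, whose other 749 sites lie on Het scaffolds and were not considered. The distance between sites chose the members, so spacing and counts per arm are given below as descriptions without a test. Strand, serial number and presence in a second, separately made list were not read by the rule and are compared between isolated sites and the other 8985 main-arm sites.

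A core promoter is the short stretch of DNA around a start site on which RNA polymerase II and the general transcription factors assemble. Fly core promoters carry different combinations of short motifs, and some start transcription at a sharply defined base while others spread it over a wider stretch. Core promoters of neighbouring genes often lie back to back in this compact genome, and most are nearly inactive on their own and respond to enhancers elsewhere. An assay that takes every fragment out of its place in the chromosome asks which DNA can start transcription by its own sequence.

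STAP-seq makes that test by placing sheared fragments, size-selected to about 100 to 250 bp, upstream of a truncated GFP reading frame and sequencing the 5′ ends of the transcripts that begin in them. The genome-wide library was made from embryos of the sequenced fly strain (y; cn bw sp) and tested in S2 cells, an embryonic cell line with properties of blood cells, with the zfh1 enhancer in the plasmid (2 samples) or with no enhancer (2 samples). A library from bacterial artificial chromosomes (BACs), large cloned pieces of the genome, was tested in the same cells with the zfh1 enhancer (3 samples) or with no enhancer (1 sample), and the labels of these samples name a second list of 753 sites. Both lists are named for zfh1, the gene of a zinc finger and homeodomain transcription factor. Each is 1 set of positions with a strand and a serial number, with no read count, no level and no column for a sample. The response to the enhancer and the spread between replicates therefore have no value here, the depth is unknown, and every interval below covers counting error only. Sites are not replicates of a sample. A site also counts as isolated when a weaker neighbour was not called, which the list cannot show. No source at hand states how sites were called.

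On a log scale, distances from each main-arm site to its nearest listed neighbour formed 2 humps. The first lay at short range, with 599 sites in the class around 28 to 39 bp, and no pair on the same strand was closer than 22 bp. Numbers fell to 257 sites at about 221 to 312 bp, near the upper end of the fragment sizes, and rose again to 1109 sites just under the limit of 5000 bp. The class just above the limit, up to 7071 bp, held 1085 isolated sites. The limit thus runs through the middle of the broad second hump of the log scale, and isolated sites are its far side. The classes span more bp the longer the distance, so the dip and the second hump belong to that scale. Per bp of distance, the number of sites fell from each class named here to the next. The members closest to the limit were a plus-strand site on 3L at 22069196, 5002 bp from its neighbour, a minus-strand site on 3R at 12956141, 5007 bp away, and a minus-strand site on 2R at 18394746, 5017 bp away. The sites that just missed it lay on 3R at 25840887 (minus strand, 4997 bp), on 3R at 20667656 (plus, 4993 bp) and on X at 5516660 (plus, 4989 bp).

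**Figure D1:**
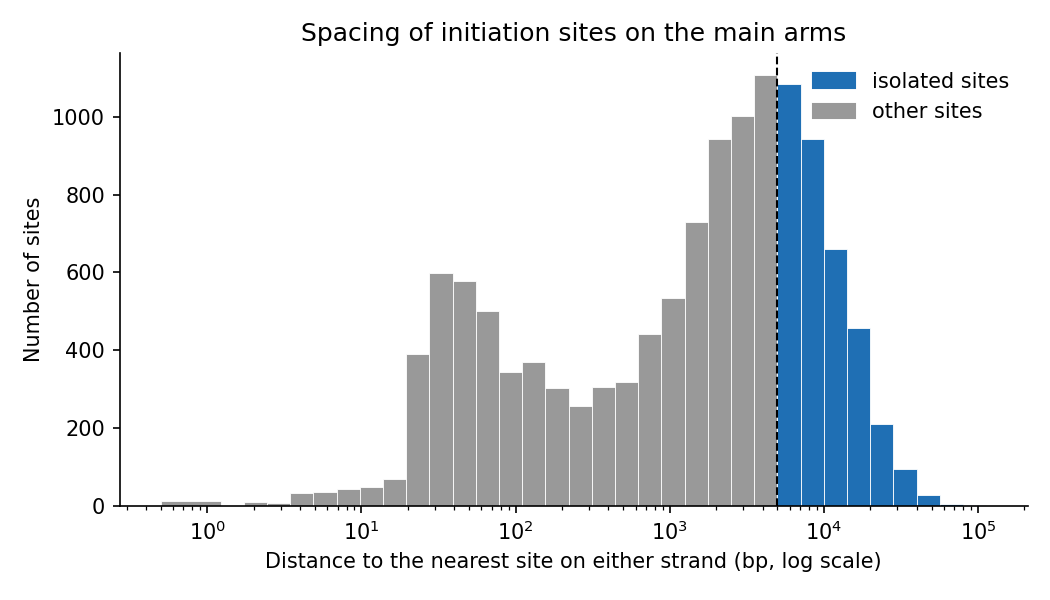
Number of main-arm sites (vertical axis) by distance to the nearest listed site on either strand in bp (horizontal axis, log scale); blue bars are the 3484 isolated sites, grey bars the other 8985, and the dashed line is the limit of 5000 bp. Classes are equally wide on the log scale and so widen in bp with distance. On this scale the limit cuts the broad second hump between a class of 1109 and a class of 1085 sites.

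The median isolated site lay 8860 bp from its nearest neighbour, with quartiles of 6580 and 13389 bp. On the other side the distance was longer, with a median of 19416 bp, and the median stretch free of other sites around an isolated site was 29.6 kb. A neighbour-free distance above 10000 bp was found for 1454 sites, 41.7% of the members, above 20000 bp for 339 or 9.73%, and above 50000 bp for 13 or 0.373%. Only 8 members, the first or last site of an arm, had a neighbour on 1 side alone. Isolation was local: within 50 kb an isolated site had a median of 9 other sites (quartiles 6 and 13), against 13 (quartiles 9 and 17) for the other sites.

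The most remote site of the list was on 2L at 11710509, on the plus strand, in a free stretch of 215.6 kb with its neighbours 128.5 kb to the left and 87.0 kb to the right. On X the most remote site was at 7312628 (plus strand), 81.2 and 120.5 kb from its neighbours, and the next at 3470792 (plus strand), 62.1 and 105.8 kb from them. These stretches hold 1 listed site each, although fragments of the whole genome were tested. On 3L the site at 5417209 (plus strand) stood 68.7 and 77.4 kb from its neighbours, and the site at 10509103 (plus strand) 147.0 and 57.6 kb from them. On 3R the 2 most remote sites were at 18725009, 63.3 and 78.0 kb from their neighbours, and at 20292993, 63.9 and 57.5 kb away, both on the plus strand. The first of these carried serial number 128 of 13218 and the second 12479. Over all main-arm sites the median serial number was 6503 at 5001 to 10000 bp from the nearest site, 6791 at 10001 to 20000 bp and 7158 above 20000 bp. On 2R the widest distances were smaller, 46.4 kb to the nearest neighbour for the plus-strand site at 13150612 and 40.5 kb for the minus-strand site at 9600931. The second most remote site of 2L was the first of the arm, at 12816 on the plus strand, with its only neighbour 46.4 kb away. How far the fragments cover each of these stretches is not known here.

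The number of isolated sites varied less from place to place than that of all sites, which the rule itself favours because it removes dense groups. Their rate was 29.0 per Mb of the span between the first and last site (95% Poisson interval 28.1 to 30.0). The 5 large arms lay between 27.8 per Mb on 2L (25.7 to 30.1) and 30.2 on 3R (28.2 to 32.3), with overlapping intervals, while all sites ranged from 92.9 per Mb on 2L to 121.7 on 2R. In turn the isolated share was lowest on the densest arm, 23.7% of 2574 sites on 2R (609 isolated). It was 27.4% on 3R (840 isolated), 28.5% on 3L (719), 29.9% on 2L (639) and 31.1% on X (649). These shares follow in part from density, because the rule counts neighbours. Over 117 windows of 1 Mb that were not the last of an arm, the number of isolated sites was 29.0 ± 4.91 (SD) and that of all sites 104.3 ± 24.3 (SD), coefficients of variation of 16.9% and 23.3%. Every such window held isolated sites, from 18 of 103 sites on 2L at 18000001 to 19000000 up to 40 of 106 on 3R at 21000001 to 22000000. Across these windows, all cut from 1 list and not independent, the numbers of isolated and of all sites had a Pearson's r of 0.19 and a Spearman's rho of 0.16.

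The isolated share also varied along the arms. A pair of neighbouring windows of 2R, at 3000001 to 4000000 and 4000001 to 5000000, had the lowest shares, 16.3% of 147 and 16.1% of 118 sites. The highest were on 3L, 51.5% of 66 sites at 18000001 to 19000000 and 50% of 76 sites at 23000001 to 24000000. When each large arm was divided into 5 equal parts, the fourth part of 2L, which held its fewest sites (297), had the highest share of that arm, 38.0%. On 3L the share was 24.3% in the first and 34.3% in the fifth part, which lies next to the centromere. In the centromere-proximal parts of the other large arms it was 26.3% on 2L and 22.8% on 2R, below the share of the whole arm, and 28.4% on 3R and 31.8% on X, above it.

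**Figure D2:**
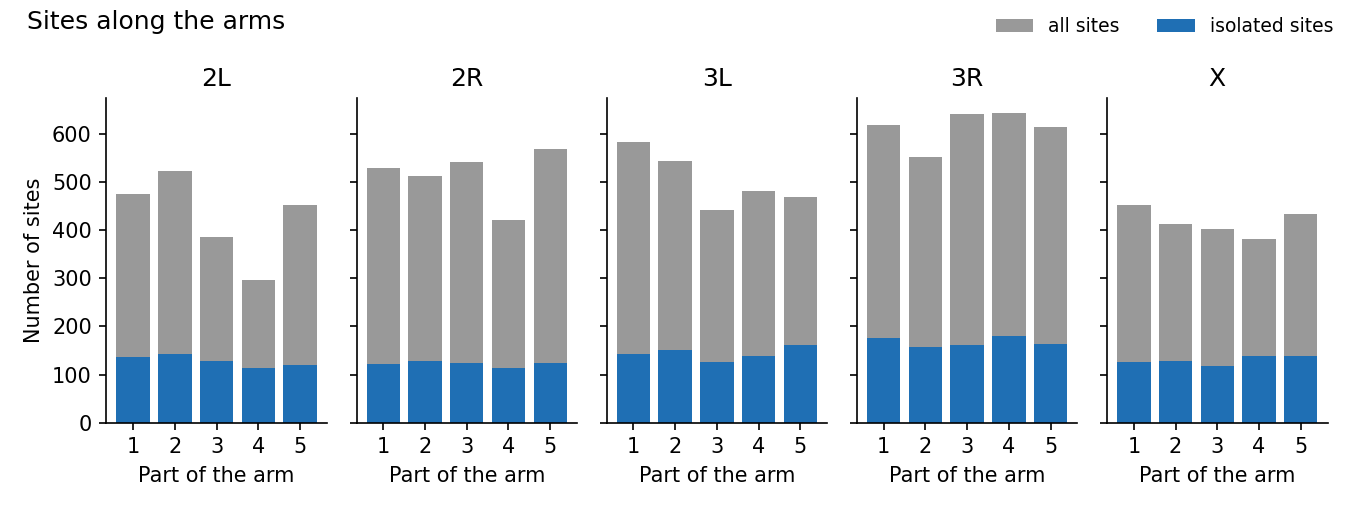
Number of sites (vertical axis) in 5 equal parts of the span of each large arm (horizontal axis, parts in order of position); grey bars show all sites and the blue part the isolated ones. Isolated sites stay between 113 and 181 per part while all sites vary from 297 to 643.

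Chromosome 4, a small chromosome with features of heterochromatin along much of its length, held 28 isolated sites, 33.7% of its 83. Their nearest neighbours lay at a median of 15973 bp, farther than on any large arm, where medians ran from 8138 bp on 2R to 9425 bp on X. All sites were also sparser on chromosome 4, at 70.5 per Mb against 92.9 on 2L, the sparsest large arm. Its isolated sites numbered 23.8 per Mb, with a 95% Poisson interval of 15.8 to 34.4 that overlaps those of the large arms. Of 5 equal parts of this chromosome, all 7 sites of the fourth were isolated, and 4 of 35 in the third, which holds a dense group. The most remote were adjacent minus-strand sites at 930712 and 976850, 46.1 kb apart. Their serial numbers, 12848 and 12849, were also adjacent. The median serial number of the 28 sites was 9192, with a 95% interval from 5420 to 10624 that is too wide to set it apart from the 6652 of all isolated sites.

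Isolated sites often followed one another. In the order of sites along the arms they fell into 1558 uninterrupted runs, of which 722 were single sites, 382 were pairs and 454 held 3 or more, so that 79.3% of the members had another isolated site as a direct neighbour. The longest run, chosen after its length was seen, held 16 sites over 315.3 kb of 2R, from 6770485 to 7085781. It had 7 plus-strand and 9 minus-strand sites, with distances from 6.08 to 44.1 kb between them (median 11.8 kb). Serial numbers in this run went from 1134 to 9865. The BAC screen covered its right end, where it listed 3 of 5 sites at the same base, at 7042390, 7061310 and 7085781, all on the plus strand. The 2 minus-strand sites between them, at 7071741 and 7079701, had no BAC site within 50 bp on their strand. Among all isolated sites that the BAC screen covered, 50 plus-strand and 57 minus-strand sites were listed at the same base. Those with no BAC site within 50 bp were 18 on the plus and 29 on the minus strand.

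No departure from equal use of the strands was detected among isolated sites. Of the 3484 sites, 1747 were on the plus and 1737 on the minus strand (50.1% plus, Wilson 95% interval 48.5 to 51.8, exact two-sided binomial p = 0.879). The other main-arm sites were 50.3% plus, and the shares did not differ past the threshold of 0.05 (Fisher's exact p = 0.873). By arm, the plus-strand share of isolated sites was highest on 2R, with 325 against 284 sites (53.4%, exact p = 0.105), and lowest among the large arms on 3R, with 401 against 439 (47.7%, exact p = 0.202). Neither passed the test, each with an adjusted exact p of 0.605 after Benjamini-Hochberg (BH) adjustment over the 6 arms.

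Next, the strands of an isolated site and of the sites on either side of it were compared, across gaps that are by rule longer than 5000 bp. Of the 5034 gaps beside an isolated site, 2623 joined sites on the same strand, 52.1% (50.7 to 53.5, exact binomial p = 0.00294, BH-adjusted over 2 tests 0.00335). Gaps of 251 to 5000 bp between other sites were same-stranded in 53.7% of 5502 cases, a difference of -1.57 percentage points (95% interval -3.47 to 0.34, Fisher's exact p = 0.109). Gaps of 1 to 250 bp were same-stranded in 59.5% of 1927 cases, and isolated sites lay below them by a difference of -7.42 points (-9.99 to -4.81, Fisher's exact p = 2.60e-08, BH-adjusted over 2 comparisons 5.19e-08). Beside sites with no other site within 10000 bp, the 51.8% of gaps on the same strand no longer passed the test (exact p = 0.0958), and among the 1926 gaps with an isolated site at both ends 51.8% did not either (exact p = 0.127). Neighbouring gaps share a site and all come from 1 list. The tests treat gaps as independent, and what this does to the p-values was not tested.

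Opposite-strand gaps beside isolated sites were more often convergent, with the 2 sites pointing at each other, than divergent. There were 1278 convergent and 1133 divergent ones, 47.0% divergent (45.0 to 49.0, exact binomial p = 0.00335, BH-adjusted over 2 tests 0.00335). Gaps of 1 to 250 bp between other sites showed the opposite balance, with 475 divergent and 305 convergent (60.9% divergent), a difference of -13.9 points from that group (-17.8 to -9.90, Fisher's exact p = 1.66e-11, BH-adjusted over 2 comparisons 3.31e-11). These balances are tied to each other by arithmetic. Along an arm a change from minus to plus must be followed by one from plus to minus, so over all 12463 adjacent gaps the totals were 2869 divergent and 2871 convergent. An excess of divergent gaps at short range therefore requires an excess of convergent gaps at longer range, and the test on gaps beside isolated sites is no separate evidence of a preference there. Against gaps of 251 to 5000 bp, with 49.5% divergent, the difference was -2.48 points (-5.25 to 0.30, Fisher's exact p = 0.083). Gaps with isolated sites at both ends were nearly balanced, with 456 divergent and 473 convergent (49.1%, exact p = 0.600), and gaps with an isolated site at 1 end held 677 and 805 (45.7%).

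Each site carries a serial number from 1 to 13218, on a basis that no source at hand states. Isolated and other sites were distributed over it with close medians. The median was 6652 for isolated sites (95% interval of the median 6395 to 6887) and 6590 for the others (6463 to 6724). The isolated share was between 25.7% and 29.8% in each of 10 equal bins of the numbers, highest in numbers 1323 to 2644 and lowest in numbers 2645 to 3965. The first bin had 29.4% (26.9 to 31.9) and the last 29.1% (26.6 to 31.7).

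**Figure D3:**
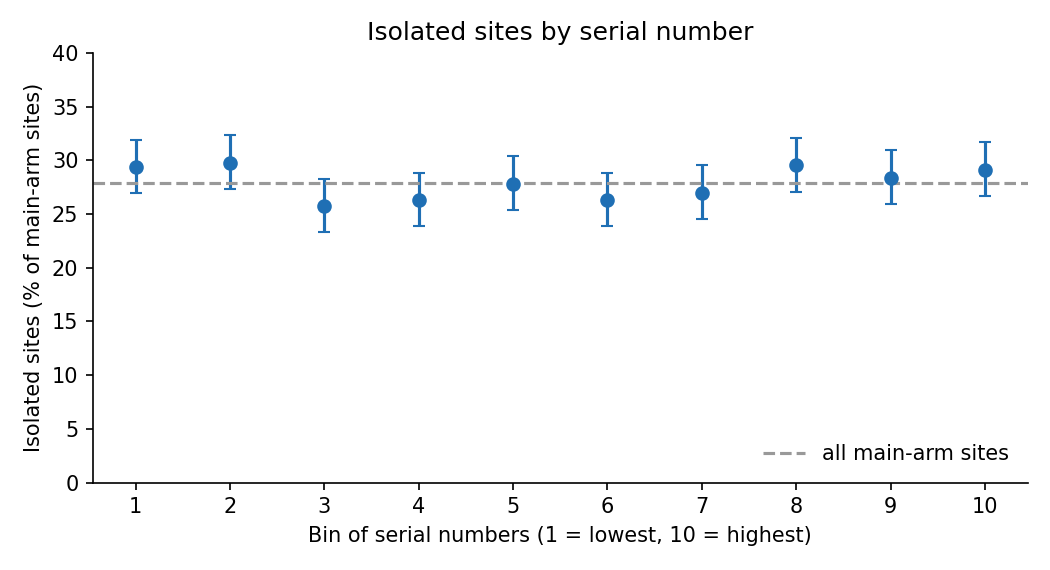
Isolated sites as a percentage of main-arm sites (vertical axis) in 10 equal bins of serial numbers (horizontal axis, 1 for the lowest numbers); bars are Wilson 95% intervals and the dashed line is the 27.9% of all main-arm sites. The bins run from 25.7% to 29.8%.

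The site with number 1 was itself isolated, on 3R at 9638830 (plus strand), with neighbours 30.3 and 37.8 kb away. The next isolated sites in number were less remote. Number 3, on 2L at 11081397 (minus), had its nearest neighbour at 5324 bp, and number 7, on 2R at 15212995 (minus), at 5399 bp. Number 10, on 3L at 15946091 (minus), and number 11, on 3R at 7819035 (minus), stood 6193 and 5970 bp from the nearest site. For these 4 minus-strand sites the nearest neighbour was a plus-strand site to the right, a divergent arrangement. This was seen only after the positions were read, and it was not tested. Among all opposite-strand gaps beside isolated sites, 47.0% were divergent. At the other end of the numbering, isolated sites were number 13215 on X at 19102157 (minus), 13214 on 2R at 4982778 (plus), 13212 on X at 15643210 (plus), 13187 on X at 9913507 (minus) and 13184 on X at 9594120 (plus). Of these 5, the sites at 15643210 and 9594120 lay where BACs were tested; the first was listed there at the same base and the second was not.

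The BAC screen tested the same kind of fragment from a small part of the genome, in samples the rule did not read, and so could be asked whether isolated sites were found again. The BAC list fell into 34 stretches of 4.90 Mb in all, which held 166 isolated sites, 4.76% of the members, among 656 genome-wide sites. Of the 166, 107 were in the BAC list at the same base and strand, 64.5% (Wilson 95% interval 56.9 to 71.3). Of the 490 other sites 299 were, 61.0% (56.6 to 65.2). The difference was 3.44 percentage points (Newcombe 95% interval -5.20 to 11.6) and did not pass the test (Fisher's exact p = 0.460). Each stretch begins and ends at a BAC site, for want of BAC coordinates. Within 5000 bp of such an end 18 of 18 isolated and 50 of 78 other sites were shared, and without these sites the shares were 60.1% of 148 and 60.4% of 412 (Fisher's exact p = 1).

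Sharing changed little with the distance to the nearest site. It was 58.7% (50.4 to 66.6) for sites with a neighbour within 100 bp, 65.0% (55.5 to 73.6) at 2501 to 5000 bp, and 61.5% (52.1 to 70.1) for isolated sites at 5001 to 10000 bp. At 10001 to 20000 bp 34 of 46 isolated sites were shared, 73.9% (59.7 to 84.4), and above 20000 bp 6 of 11, 54.5% (28.0 to 78.7). All these intervals overlap. Sites within 5000 bp of a stretch end, where 18 of 18 isolated sites were shared, are kept in these shares. They are also kept in the shares by arm and by serial number below. Within arms, the isolated minus other difference ran from -2.89 points on 3R (32 of 53 isolated sites shared) to 16.3 points on X (17 of 23). The smallest Fisher's exact p of the 5 arms with BACs was 0.211, on X, and each BH-adjusted value was 1.

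**Figure D4:**
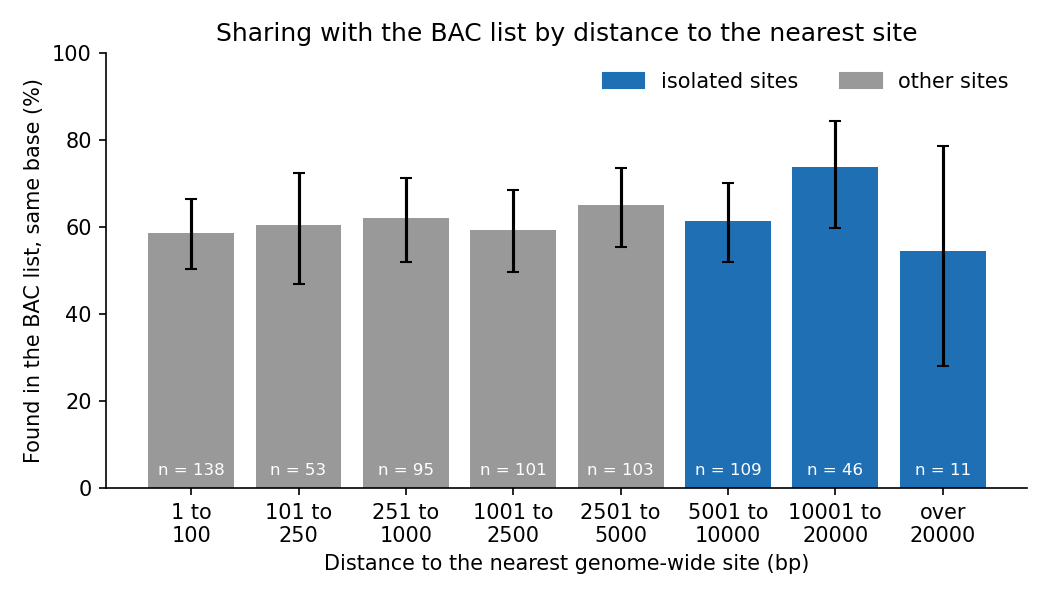
Percentage of genome-wide sites in the BAC stretches that the BAC list holds at the same base and strand (vertical axis), by distance to the nearest genome-wide site in bp (horizontal axis); blue bars are isolated sites, grey bars other sites, error bars Wilson 95% intervals and n the number of sites. The shares lie between 54.5% and 73.9% with overlapping intervals. Sites near the ends of stretches are included.

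In both kinds of site sharing was lower at high serial numbers. In numbers 1 to 3304, 26 of 30 isolated sites (86.7%) and 75 of 96 others (78.1%) were shared. In numbers 3305 to 6609 the shares were 76.7% and 76.8%, and in numbers 6610 to 9914 they were 54.8% and 58.3%. From number 9915, 12 of 34 isolated sites (35.3%) and 28 of 107 others (26.2%) were shared. Isolated and other sites did not differ past the threshold in any of these 4 bins, with Fisher's exact p-values from 0.382 to 1 and BH-adjusted values of at least 0.866. The 107 isolated sites shared at the same base had a median number of 5226, and the 47 with no BAC site within 50 bp on their strand had one of 9158.

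Where an isolated site was found in both screens, its position was nearly fixed. Of 119 isolated sites with a BAC site within 50 bp on the same strand, 107 matched to the base, 89.9% (83.2 to 94.1). The other 12 differed by at most 4 bp, 7 with the BAC site downstream and 5 with it upstream. None was displaced by 6 to 50 bp, whereas 21 of the 362 matched other sites were. At the same base were 299 of these 362, 82.6% (78.4 to 86.2), and the difference of 7.32 points (-0.28 to 13.3) did not pass the test (Fisher's exact p = 0.0591). Counting matches within 5 bp alone, 87.7% of the others were at the same base (Fisher's exact p = 0.621). Whether the matches at 6 to 50 bp are displaced starts of the same site or belong to a close neighbour was not tested.

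The lowest-numbered shared sites of each arm show the range of surroundings. On 2R the sites were at 7120006 (minus), 5913539 (minus) and 7085781 (plus), numbers 740, 1005 and 1349, with nearest neighbours at 7.63, 12.1 and 5.61 kb. On 3R they were at 25497385 (plus), 11363010 (minus) and 2934139 (minus), numbers 1088, 1197 and 1404, at 10.4, 10.3 and 7.27 kb. None of these 6 sites had another BAC site within 5000 bp. On 2L the shared sites were at 16402204 (minus), 14972295 (minus) and 19432577 (plus), numbers 1249, 1909 and 2109, at 36.3, 25.3 and 5.92 kb. On 3L they were at 2821065 (minus), 7919046 (plus) and 5647801 (plus), numbers 1834, 3621 and 3760, at 26.9, 12.9 and 9.44 kb. On X they were at 5646544 (plus), 5675649 (minus) and 8110162 (plus), numbers 1586, 3183 and 3837, at 5.26, 9.94 and 9.92 kb. On these 3 arms 5 of the 9 sites did have other BAC sites within 5000 bp, which the genome-wide list lacks. The sites at 25497385 on 3R and 7919046 on 3L bound their BAC stretches, so their sharing was fixed by how the stretches were drawn.

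Stretches differed in how many isolated sites they held, from 0 to 14 with a median of 4.5. The one with the most, on 2L from 4945728 to 5320796, had 14 among 52 sites, of which 7 were shared at the same base. On X from 15604695 to 15784995, 9 of 14 sites were isolated and 7 of the 9 were shared. On 3R from 11787697 to 11954451, 2 of 38 sites were isolated and both were shared. On 3R from 10957646 to 11032165, neither of 2 isolated sites was shared, and this was 1 of 32 stretches with isolated sites in which none was. In 6 stretches every isolated site was shared. These examples were chosen after the counts were seen.

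Sites that stood alone in the genome-wide list did not always stand alone in the BAC list. Of the 166 isolated sites in the stretches, 59 had at least 1 other BAC site within 5000 bp, 35.5% (28.7 to 43.1): 37 had 1, 19 had 2, 1 had 3 and 2 had 4. Of the 119 that the BAC list held within 50 bp, 75 were isolated in both lists, 63.0%. Sites near the end of a stretch can count here with 1 side untested, since BAC coverage beyond the end is unknown. Among other main-arm sites 437 of 490 had another BAC site that near, 89.2%, a difference of -53.6 points (-60.9 to -45.5, Fisher's exact p = 4.03e-40) that is largely given by the rule, since their genome-wide neighbours are themselves often in the BAC list. Counting BAC sites with no genome-wide site within 50 bp on their strand removes this, and then 215 of the 490 other sites had one, 43.9% (39.5 to 48.3). Against that, the isolated sites' 35.5% differed by -8.34 points (-16.5 to 0.35, Fisher's exact p = 0.0685). Away from the ends of stretches, 37.2% of 148 isolated and 43.0% of 412 other sites had one. That difference was -5.80 points (-14.6 to 3.49, p = 0.243 in Fisher's exact test). Isolated sites with and without a BAC match of their own had other BAC sites at 37.0% and 31.9% (Fisher's exact p = 0.592).

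The added BAC sites numbered 79, some of them near more than 1 isolated site, which gave 86 placements. They fell on the strand of the isolated site in 44 and on the other in 42 (51.2% same strand, 40.8 to 61.4, exact binomial p = 0.914), and downstream of it in 45 and upstream in 41 (exact binomial p = 0.747). At 2501 to 5000 bp there were 45 placements, or 5.42 per 100 kb of window (95% Poisson interval 3.95 to 7.25), and at 1001 to 2500 bp 21, or 4.22 per 100 kb (2.61 to 6.45). Within 250 bp, a distance that 1 fragment can span, there were 10, or 12.0 per 100 kb (5.78 to 22.2). The other sites had 11.0 per 100 kb at that distance (7.26 to 16.0). From 251 to 1000 bp the isolated sites had 10 placements, 4.02 per 100 kb (1.93 to 7.39), and the other sites 6.26 (4.58 to 8.35). Placements that share a site are not independent, and BAC sites within 50 bp on the isolated site's strand were taken as the same site. The median BAC serial number of the added sites was 533. All 79 are part of the 274 BAC sites without a genome-wide site within 50 bp on their strand, which had a median of 544.5. The BAC sites matching isolated sites had a median of 227, and the whole BAC list one of 377.

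**Figure D5:**
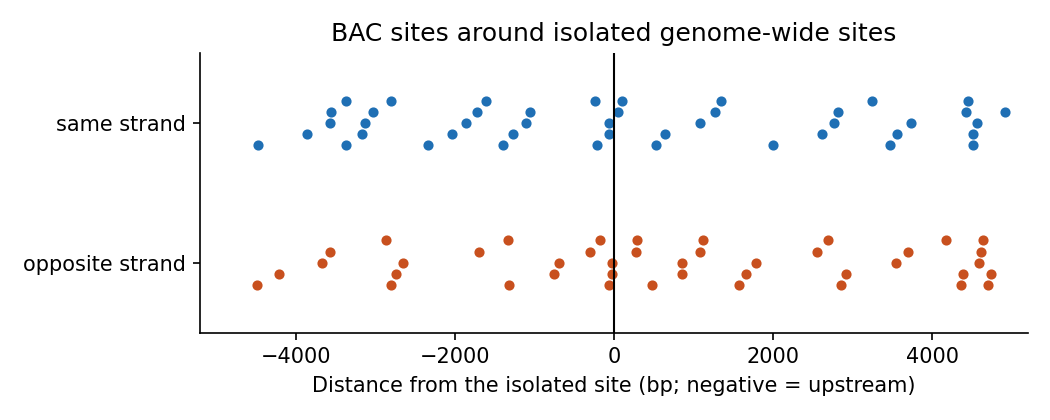
Distance in bp from an isolated site to each other BAC site within 5000 bp (horizontal axis, negative values upstream in the isolated site's direction); points in the upper row are on its strand and in the lower row on the opposite strand, with small vertical steps only to separate points. The 44 same-strand and 42 opposite-strand placements spread over both sides.

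Of the 10 placements within 250 bp, 8 were upstream and 2 downstream of the isolated site. The site on 2L at 16402204 (minus) had 2, on its own strand at 16402150, 54 bp downstream, and at 16402441, 237 bp upstream. The site on 2L at 14922014 (plus) was not in the BAC list, which instead held minus-strand sites 19 and 56 bp upstream of it, a divergent arrangement. The minus-strand site on X at 15768388 likewise had no match, but a BAC site lay 66 bp upstream on its strand. These 3 were chosen after their positions were seen.

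The isolated sites with the most other BAC sites were on 3L, with 4 each. Around the plus-strand site at 5647801 these formed 2 opposite-strand pairs, at 1125 bp (minus) and 1348 bp (plus), and at 4512 bp (plus) and 4741 bp (minus), all downstream. The minus-strand site at 7794639 was itself not in the BAC list, and the 4 BAC sites near it lay 3132, 3170, 3369 and 3859 bp upstream, all on its strand. Among these were BAC numbers 138 and 278, in the lower part of that list's numbering. On 2L the site at 419204 (minus) had 3, a same-strand site 1087 bp downstream, an opposite-strand site 751 bp upstream and a same-strand site 1864 bp upstream. The site on 2L at 16402204, described above, and the plus-strand site on X at 5646544, with BAC sites 2687 bp (minus) and 3251 bp (plus) downstream, followed with 2 each. The last 2 were taken from the 19 sites with 2 by their low serial numbers.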

How the data were processed

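Each list was deposited as a table of genome positions in bp with a strand and a serial number, with no header and no level per site. The genome build was dm3, and Bowtie 0.12.9 and CASAVA 1.9.1 were among the tools, per the submitters' processing notes, which give them no role; no source at hand states how sites were called. Positions are 1-based (column 3). The gene table at hand is of another build, so no gene, annotation or sequence was assigned, and the planned motif comparison was not run. The other 10 samples were not analysed here.

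From the lists, scipy 1.17.1, pandas 2.3.3 and numpy 2.4.6 under Python 3.11.15 (plots with matplotlib 3.10.9) gave distances, Wilson, Newcombe and exact Poisson 95% intervals, exact binomial and two-sided Fisher's exact tests (threshold 0.05), with BH adjustment within each family. Intervals of medians come from order statistics. BAC stretches end at gaps above 60 kb. Isolation calls and matching at the same base were tested on simulated data, in which the BAC list was a part of the genome-wide list. Matches at a shifted base were therefore not tested there. Counts of nearby BAC sites were checked only at isolated sites, where the simulation placed none. Sites named are the 2 most remote per arm, the 5 lowest and 5 highest numbers, the 3 lowest-numbered shared sites per arm, the 5 with most other BAC sites and those nearest the limit, plus examples marked as chosen later. Members, lists and tests were chosen with earlier results of these data known. Alternatives changed the limit, match distance, stretch gap and sites included.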

Additional observations from a re-analysis of the deposited data

How the results depend on the processing

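No paired analysis was possible because neither list has per-sample values. For that reason no replicate could be blocked or left out, and depth could not be weighed. The number of isolated sites changed from 3484 to 5592 at 2500 bp, 1454 at 10000 bp and 5873 when only same-strand neighbours counted. The difference in sharing between isolated and other sites was never past the threshold but changed direction in 3 settings: 71.7% against 73.9% within 50 bp (Fisher's exact p = 0.612), 64.5% against 73.5% with the others counted once per cluster (p = 0.0902 in the exact test), where keeping the lowest serial number favours shared sites, and 60.1% against 60.4% away from stretch ends. With the other settings isolated sites were shared at 63.3% to 72.0%. Other BAC sites near isolated sites were found at 10.2% within 1000 bp and 19.9% within 2500 bp. When BAC sites in both lists were left out, the 35.5% stood against 43.9% of other sites. That smaller difference was not past the threshold (Fisher's exact p = 0.0685). The same-strand share of 52.1% was 51.8% with the isolation limit at 10000 bp (exact p = 0.0958) and 51.8% between isolated sites (exact p = 0.127), neither past the threshold. The divergent share was 46.5% with the limit at 10000 bp and 47.1% with it at 2500 bp, both past the threshold. Between isolated sites it was 49.1% (exact p = 0.600), not past it. The balance of divergent and convergent gaps along an arm, described above, applies at any limit. These settings are therefore no separate evidence of a preference beside isolated sites. Why gaps between isolated sites were closer to balance was not tested. The median number of other sites fell from 6590 to 2741 with 1 site per cluster, by construction. Alternatives on stretch ends, BAC sites in both lists, matches within 5 bp among matched sites and gaps between isolated sites were chosen after seeing the data.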
